A study of Mus musculus with 8 samples.

Results

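The core autophagy machinery was examined as 36 genes, chosen by symbol for their known roles: the kinase complex that starts an autophagosome, the lipid kinase complex, the membrane suppliers, the conjugation enzymes, the Atg4 proteases, the Atg8 family, 4 cargo receptors and the transcription factor Tfeb. All 36 of 36 symbols were among the 21878 symbols of the count table. All 36 also had 10 or more counts in at least 4 of the 8 samples, the minimum for testing, which 11718 genes met.

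RNA-seq was performed on peripheral blood of wild-type female C57BL/6 mice aged 6 to 8 weeks, in 4 Control samples and 4 Stress samples. Stress mice were restrained for 6 hours in a ventilated tube, and Control mice were littermates left in a normal cage. Neither group had food or water in those hours, so a short fast was shared by both and is not part of the comparison. The question was how acute restraint changed gene expression in blood. Total counts ranged from 25978683 in Stress 3 to 39014775 in Control 3, and the lowest count of any of the 36 genes in any sample was 10 (Atg10), the highest 15708 (Gabarapl2).

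Autophagy encloses part of the cytoplasm in a new membrane sac, the autophagosome, and delivers it to the lysosome for breakdown. The sac grows as Atg8 proteins are joined to its lipid, and cargo receptors bind both the Atg8 proteins and the material to be removed. In blood the pathway is best known for clearing mitochondria from maturing red cells, and white cells and platelets use it as well.

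Levels were read as CPM, counts scaled to library size, with libraries adjusted by TMM factors. On this scale 10 of the 36 genes rose under stress at an adjusted p below 0.05 (edgeR quasi-likelihood test, Benjamini-Hochberg over all tested genes). They were Gabarapl1, Atg12, Atg7, Sqstm1, Optn, Becn1, Atg3, Map1lc3a, Gabarap and Map1lc3b. This is 27.8% of the genes, beside 10.4% of all 11718 tested genes that rose. None fell (0 of 36 in edgeR, 4 of 36 at an unadjusted p below 0.05, 1 by DESeq2 and 0 by limma-voom), beside 3.69% of all tested genes. At the study's own thresholds (adjusted p below 0.01 and a log2 fold change beyond 1 in size), 0 of 36 passed by edgeR, DESeq2 or limma-voom, beside 1.69% of all genes that rose. At an unadjusted p below 0.05, 16 of the 36 were higher by each of these tools. The median log2 fold change of the 36 genes was 0.08, with 22 genes above 0 and 14 below. The number that rose was 5, 2, 3 and 12 without Control 1, 2, 3 or 4 and 4, 4, 8 and 11 without Stress 1, 2, 3 or 4.

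The direction depended on the scale. When libraries were scaled by total counts alone, 0 of the 36 genes rose and 15 fell (edgeR, the one tool run on this scale, with 0 higher and 18 lower at an unadjusted p below 0.05), which is 41.7% of the genes beside 49.6% of all tested genes that fell and 0.444% that rose. The median of the 36 genes was then -0.72, and the median of all tested genes moved from -0.03 to -0.82. The 10 genes called on the TMM scale lay between -0.38 and 0.19 on the total-count scale. With libraries scaled to the red cell markers, a choice made after seeing the data, 0 of the 36 rose and 5 fell in edgeR (Rb1cc1, Pik3r4, Ambra1, Atg2b and Wipi2, with 0 higher and 16 lower at an unadjusted p below 0.05), beside 0.128% and 30.4% of all tested genes. Alas2 made up 96.3% of the summed CPM of those markers, so this scaling rests mostly on 1 gene. The median of the 36 genes was then -0.88, and that of all tested genes -0.99. As a share of total counts the 36 genes together made up 0.170%, 0.170%, 0.171% and 0.165% in Control 1 to 4 and 0.169%, 0.142%, 0.143% and 0.169% in Stress 1 to 4.

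Haemoglobin transcripts took a large and unequal part of each library. They made up 61.1%, 57.2%, 51.9% and 63.8% of counts in Control 1 to 4 and 66.5%, 70.4%, 75.5% and 61.2% in Stress 1 to 4. The group means were 58.5 ± 5.17% and 68.4 ± 6.06% (SD, n = 4 each; two-sided exact permutation p = 0.0571), and the groups overlapped. The TMM factors ran the opposite way, at 1.17, 1.47, 1.77 and 1.01 in Control 1 to 4 and 0.801, 0.727, 0.507 and 1.10 in Stress 1 to 4, so a gene keeping its share of total counts has a higher CPM on the TMM scale in Stress 3 than in any other sample.

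Marker genes of several blood cells also differed between the groups on the TMM scale, where 10.4% of all tested genes rose and 3.69% fell. Of 12 red cell markers tested, 0 passed in edgeR (8 were higher at an unadjusted p below 0.05, and 3 passed by DESeq2 and 5 by limma-voom). The median was 0.99, and their summed level was 19790, 12602, 9127 and 25341 CPM in Control 1 to 4 and 31527, 27864, 41833 and 19347 CPM in Stress 1 to 4, of which Alas2 made up 96.3%. All 10 of 10 platelet markers rose, with summed levels of 1858, 1317, 1268 and 1927 CPM in Control and 2864, 3272, 3644 and 2873 CPM in Stress and Ppbp the most abundant. Of 11 neutrophil markers 8 rose, with sums of 330, 285, 192 and 378 CPM in Control and 621, 589, 634 and 873 CPM in Stress. Csf3r, the most abundant, was not among the 8 (edgeR adjusted p = 0.0546). Of 8 classical monocyte markers 7 rose, all but Csf1r (edgeR adjusted p = 0.164). The 8 summed to 424, 330, 387 and 455 CPM in Control and 1219, 700, 1079 and 1122 CPM in Stress, of which Lyz2 made up 66.6%. Of 10 B cell markers 7 fell, with sums of 1101, 1329, 1348 and 1112 CPM in Control and 929, 747, 928 and 979 CPM in Stress. Cd79a, the most abundant, was not among the 7 (edgeR adjusted p = 0.345). By total counts 0 of 10 platelet markers rose (edgeR, and 0 at an unadjusted p below 0.05; median 0.23), 4 neutrophil and 4 classical monocyte markers rose, and all 10 B cell markers fell, beside 0.444% of all tested genes that rose and 49.6% that fell. Defining markers near 0 were Camp of the neutrophil list, at 0 to 8 counts, and Klf1 of the red cell list, at 0 to 21 counts. Ly6g, among the neutrophil markers that rose, was scarce too, at 0.0543 to 0.260 CPM in Control and 0.557 to 1.56 CPM in Stress. In bulk blood, more or fewer cells of a type cannot be told apart from more or less RNA per cell, and the part of these cell types in the results for the autophagy genes was not tested. By flow cytometry the study counted more neutrophils in stressed blood, and fewer T cells, B cells, natural killer cells and monocytes. A fit with the haemoglobin share as a covariate is described with the Atg8 family.

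**Figure D1:**
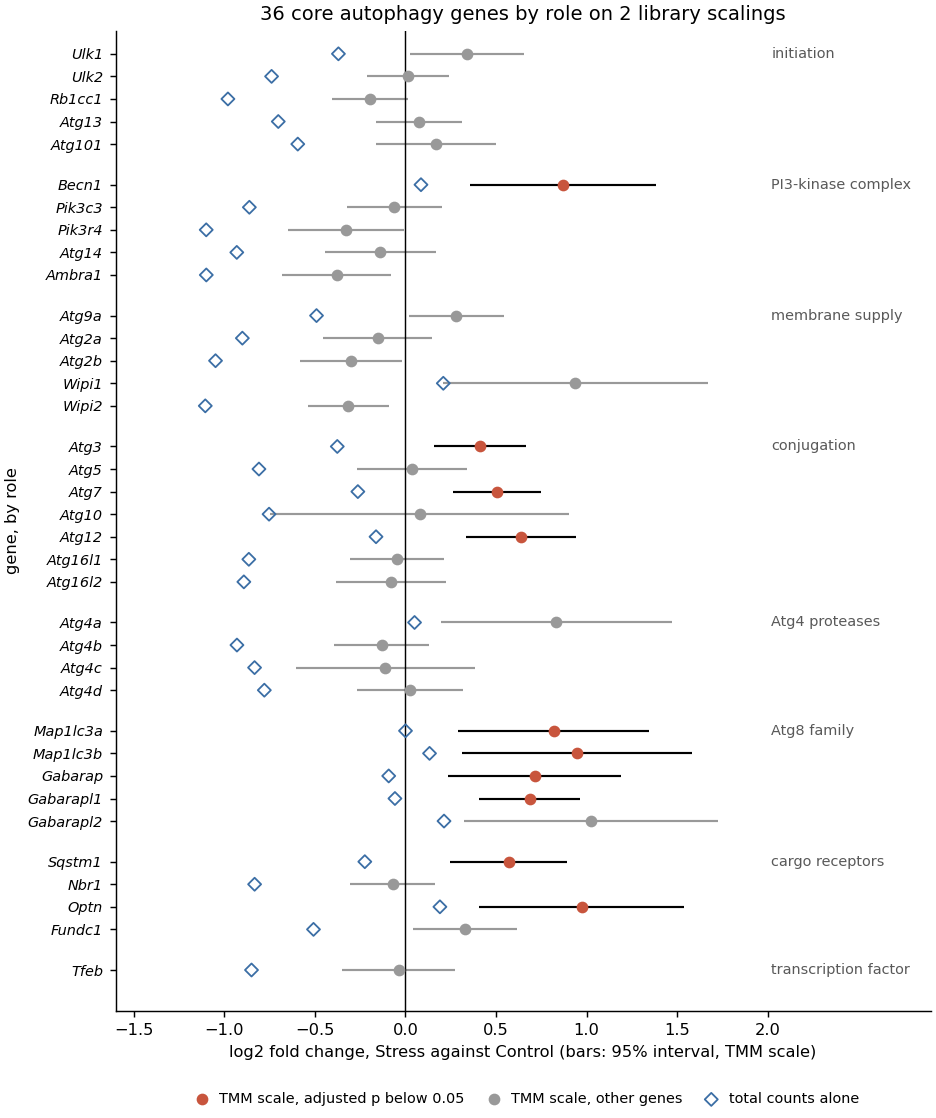
Log2 fold change of each of the 36 core autophagy genes, stress against control, ordered by role. Filled points are TMM values with 95% intervals, red where the adjusted p was below 0.05, and open diamonds are total-count values; all 5 Atg8 genes lie above 0 by TMM, while Gabarap and Gabarapl1 lie below 0 by total counts.

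Initiation of an autophagosome needs the kinases Ulk1 and Ulk2, the scaffold Rb1cc1 and the adaptor subunits Atg13 and Atg101. None of these 5 genes passed the test (0 of 5 by edgeR, DESeq2 and limma-voom, with 1 higher and 0 lower at an unadjusted p below 0.05), with 4 of 5 above 0 on the TMM scale and 0 of 5 on the total-count scale. Rb1cc1 fell by total counts in edgeR, beside 49.6% of all tested genes. Atg13, which had the highest level per kilobase of transcript among the 5, was at 17.3, 15.3, 14.8 and 15.3 CPM in Control 1 to 4 and 19.1, 14.5, 16.2 and 16.3 CPM in Stress 1 to 4. The groups overlapped, with Stress 2 the lowest of the 8 samples and Stress 1 the highest. Its log2 fold change was 0.07 (SE 0.11, edgeR adjusted p = 0.689). Ulk1 stood at a log2 fold change of 0.34 (adjusted p = 0.130), whereas Ulk2 stood at 0.01 (adjusted p = 0.944). Rb1cc1 was lower in every Stress sample, 25.0 to 30.1 CPM, than in any Control sample, 30.4 to 31.4 CPM, but its log2 fold change of -0.19 did not pass (adjusted p = 0.188). The call of Ulk1 was gained without Stress 3 (adjusted p = 0.0251).

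The phosphatidylinositol 3-kinase complex makes the lipid that marks the growing membrane. Its members here were the scaffold Becn1, the catalytic subunit Pik3c3, the regulatory subunit Pik3r4, the autophagy subunit Atg14 and the Becn1-binding regulator Ambra1. Becn1 alone passed (1 of 5 higher, 0 of 5 lower by edgeR, DESeq2 and limma-voom, with 2 lower at an unadjusted p below 0.05 by edgeR), and the other 4 genes lay below 0 on both the TMM and the total-count scale. By total counts these 4 fell in edgeR, as did 3 by total counts outside haemoglobin and 2 by red cell marker scaling, beside 49.6%, 33.7% and 30.4% of all tested genes. On the TMM scale 10.4% of all tested genes rose. Becn1 (chr11:101285952-101302286, minus strand) was at 179, 123, 95.2 and 192 CPM in Control 1 to 4 and 297, 244, 347 and 189 CPM in Stress 1 to 4. Stress 3 was the highest and Control 3 the lowest, and the groups overlapped because Control 4 exceeded Stress 4. The means were 147 ± 45.9 and 269 ± 68.1 CPM (SD, n = 4 each), and Becn1 rose by a log2 fold change of 0.87 (SE 0.24, edgeR adjusted p = 0.0300), against 0.09 by total counts and -0.02 by red cell marker scaling. The call was lost without Control 2, Control 3, Stress 1, Stress 2 or Stress 3 (adjusted p from 0.0521 to 0.101). Of the annotated exon bases of Becn1, 43.9% lie opposite exons of Cntd1, which itself had 0 to 10 counts per sample. Ambra1, at 11.5 to 20.1 CPM in Stress and 19.6 to 21.8 CPM in Control, had a log2 fold change of -0.38 (edgeR adjusted p = 0.0853, and 0.0246 without Stress 4). Pik3r4 had -0.33 (adjusted p = 0.148).

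Membrane reaches the growing sac through the lipid scramblase Atg9a, the lipid transfer proteins Atg2a and Atg2b, and Wipi1 and Wipi2, which bind the lipid made by the kinase complex. None of the 5 passed in edgeR (2 higher and 2 lower at an unadjusted p below 0.05), whereas by DESeq2 Wipi1 passed as higher and Wipi2 as lower, and by limma-voom Wipi1 alone. On the TMM scale 2 of 5 were above 0, and on the total-count scale 1 of 5, where 3 fell in edgeR, beside 49.6% of all tested genes. Wipi2 was at 26.2, 28.0, 28.1 and 25.2 CPM in Control 1 to 4 and 19.0, 23.2, 20.6 and 23.5 CPM in Stress 1 to 4. Every Stress sample was below every Control sample, as for Atg2b and Rb1cc1, which makes 3 of the 36 genes or 8.33%, beside 9.88% of all tested genes. The log2 fold change of Wipi2 was -0.32 (SE 0.10, edgeR adjusted p = 0.0586, and 0.0410 without Stress 4). Wipi1 had 9.57, 6.56, 4.19 and 14.0 CPM in Control 1 to 4 and 23.2, 13.2, 18.4 and 10.4 CPM in Stress 1 to 4, with Control 4 above Stress 2 and Stress 4. Its log2 fold change was 0.94 (SE 0.33, edgeR adjusted p = 0.0815, and 0.0169 without Control 4).

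Conjugation joins the Atg8 proteins to lipid. Atg7 is the activating enzyme, Atg3 the enzyme that transfers Atg8 proteins and Atg10 the one that transfers Atg12. Atg12 is joined to Atg5, and Atg16l1 brings that conjugate to the membrane. Of the 7 genes, which include the paralog Atg16l2, 3 rose on the TMM scale (Atg3, Atg7 and Atg12), while all 7 lay below 0 on the total-count scale, where 3 others (Atg5, Atg16l1 and Atg16l2) fell in edgeR. Each count is 42.9% of the 7 genes, beside 10.4% of all tested genes that rose by TMM and 49.6% that fell by total counts. In Atg3, Atg7 and Atg12 every Stress sample was above every Control sample. With Gabarapl1, Sqstm1 and Optn they make 6 of the 36 genes, or 16.7%, beside 11.1% of all tested genes.

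Atg12 was at 25.7, 20.7, 18.1 and 24.0 CPM in Control 1 to 4 and 36.3, 33.0, 41.2 and 27.7 CPM in Stress 1 to 4. The lowest Stress sample, Stress 4, was close to the highest Control sample, Control 1, and the groups did not overlap. Atg12 rose by a log2 fold change of 0.64 (SE 0.14, edgeR adjusted p = 0.0102), against -0.16 by total counts, and passed in all 8 fits that left out 1 sample. Atg7 was at 12.6, 10.1, 9.92 and 10.8 CPM in Control 1 to 4 and 16.1, 13.6, 15.9 and 15.8 CPM in Stress 1 to 4. Control 1 was the highest Control sample and Stress 2 the lowest Stress sample, with no overlap. Atg7 rose by 0.51 on the log2 scale (SE 0.11, edgeR adjusted p = 0.0110), against -0.26 by total counts, and lost the call without Control 2 (adjusted p = 0.0536). Atg3 was at 10.9, 12.9, 12.2 and 13.9 CPM in Control 1 to 4 and 14.0, 16.9, 18.3 and 17.5 CPM in Stress 1 to 4. The gap between groups was narrow, between Control 4 and Stress 1. Atg3 rose by 0.41 on the log2 scale (SE 0.12, edgeR adjusted p = 0.0340), against -0.38 by total counts, and lost the call without Control 1, Control 2, Control 3, Stress 2 or Stress 4 (adjusted p from 0.0570 to 0.0956). The 4 other genes, Atg5, Atg10, Atg16l1 and Atg16l2, had log2 fold changes from -0.08 to 0.08, and Atg10 was the least abundant of them at 0.446 to 1.62 CPM.

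Because 10 of the 36 genes rose together on the TMM scale, promoters of the 36 were searched on both strands for CACGTG, the E-box, and for TCACGTGA, the core of the element bound by Tfeb, which contains CACGTG. The search covered 250 bases before to 50 after each start site in RefSeq (GRCm38.p6), where 30 of the 36 genes were matched. CACGTG was found in 4 of 30 promoters (Atg3, Atg5, Atg7 and Atg14), or 13.3%, beside 8.09% of 27025 genes, and TCACGTGA in 1 of 30 (Atg3) beside 1.12%. Of the genes that rose, 7 were matched, and Gabarap, Gabarapl1, Map1lc3b, Optn and Sqstm1 had neither motif. The windows around the matches of Atg3 and Atg7, and of Atg5, which did not pass on the TMM scale, are given 5′ to 3′ on the plus strand with the motifs in capitals. The match of Atg14, which did not pass either, crosses the start site and is not shown. The windows shown lie at chr16:45158715-45158783, chr6:114670944-114670989 and chr10:44268305-44268338.
Atg3: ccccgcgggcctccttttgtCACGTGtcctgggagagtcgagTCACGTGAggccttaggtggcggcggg
Atg7: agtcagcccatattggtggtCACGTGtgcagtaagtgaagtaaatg
Atg5: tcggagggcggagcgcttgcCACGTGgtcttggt
The letters CACGTG began at positions -94 and -71 relative to the start site of Atg3, upstream of the gene, and those of Atg7 and Atg5 at -132 and -14. The match of Atg7 lies upstream of the RefSeq start but inside the gene as GENCODE M21 draws it (chr6:114643097-114860614). A match is a stretch of letters, and binding there was not measured.

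The Atg4 proteases trim new Atg8 proteins before conjugation and release them from lipid afterwards. None of the 4 passed in edgeR (1 higher and 0 lower at an unadjusted p below 0.05, 1 higher by DESeq2, which was Atg4a, and 0 by limma-voom), with 2 of 4 above 0 on the TMM scale and 1 of 4 by total counts, where 2 fell in edgeR. That is 50% of the 4 genes, beside 49.6% of all tested genes that fell by total counts. Atg4a was at 20.7, 14.9, 10.3 and 23.9 CPM in Control 1 to 4 and 42.2, 23.4, 40.2 and 18.6 CPM in Stress 1 to 4. Stress 1 and Stress 3 stood well above the rest, and Stress 2 and Stress 4 were within the Control range. Its log2 fold change was 0.83 (SE 0.29, edgeR adjusted p = 0.0769), and it passed without Control 4 or Stress 4 (adjusted p = 0.0395 and 0.0394). Of the 50-base stretches of Atg4a, 51.2% also occur in transcripts of other annotated genes, so its counts are uncertain. Atg4b, Atg4c and Atg4d had log2 fold changes of -0.13, -0.11 and 0.02. Of the exon bases of Atg4d, 19.3% lie opposite exons of Kri1, which had 131 to 967 counts per sample beside 126 to 576 for Atg4d, so its counts are uncertain as well.

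**Figure D2:**
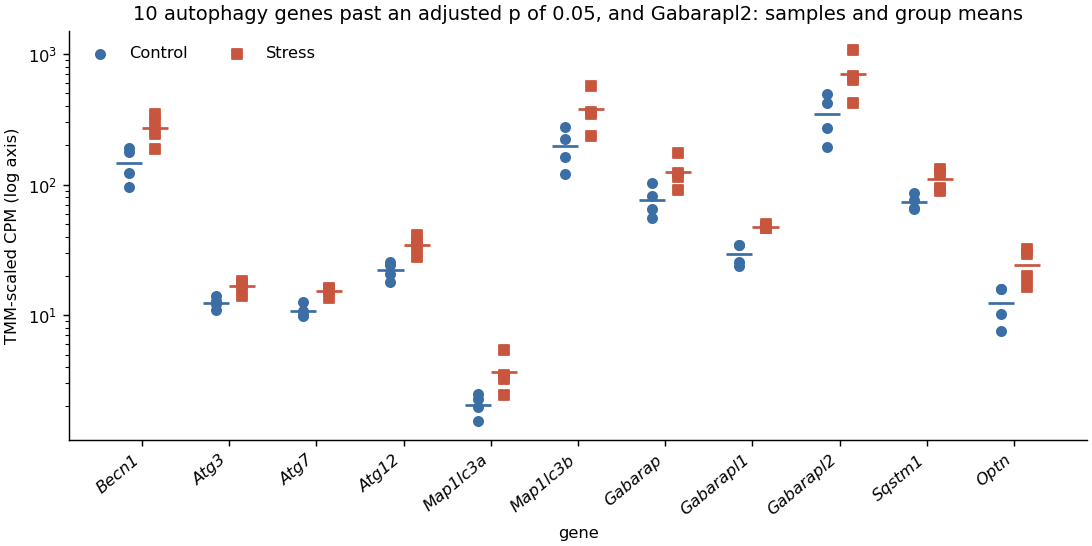
Level of the 10 genes that rose on the TMM scale, and of Gabarapl2, in each of the 8 samples, in TMM-scaled CPM on a log axis, with Control as circles, Stress as squares and horizontal lines at group means. The 4 Stress samples of Gabarapl1 lie between 46.3 and 49.9 CPM, above all Control samples, whereas Gabarapl2 spreads from 420 to 1077 CPM in Stress and overlaps Control; by total counts 6 of the 10, Gabarapl1 among them, have the opposite sign.

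The Atg8 family carried the largest share of the counts. These small ubiquitin-like proteins are the coat of the autophagosome and the docking site of cargo receptors. On the TMM scale all 5 had a log2 fold change above 0, from 0.69 to 1.02, and 4 of 5 rose, beside 10.4% of all tested genes. By total counts, in contrast, 3 of 5 were above 0 and Gabarap and Gabarapl1 below, and by red cell marker scaling Map1lc3b and Gabarapl2 were above and the other 3 below. By total counts outside haemoglobin all 5 were above 0, and Map1lc3b and Gabarapl2 passed, beside 4.70% of all tested genes that rose. The family median was 0.82 on the TMM scale, 0.00048 by total counts, 0.41 by total counts outside haemoglobin and -0.18 by red cell marker scaling.

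Gabarapl1 (chr6:129533160-129542346, plus strand) was at 34.2, 25.4, 23.9 and 34.7 CPM in Control 1 to 4 and 47.4, 49.9, 46.4 and 46.3 CPM in Stress 1 to 4. The Stress samples were nearly equal and all lay above the Control samples. The means were 29.6 ± 5.66 and 47.5 ± 1.68 CPM (SD, n = 4 each). Gabarapl1 rose by a log2 fold change of 0.69 (SE 0.13, edgeR adjusted p = 0.00439), the smallest p of the 36 genes, against -0.06 by total counts. It passed in all 8 fits that left out 1 sample. Of its exon bases 28.3% lie opposite the non-coding gene 1700101I11Rik.

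Map1lc3b, which encodes the widely used autophagosome marker LC3B, was at 224, 163, 121 and 276 CPM in Control 1 to 4 and 359, 346, 571 and 237 CPM in Stress 1 to 4. Stress 3 was far above the rest, and Stress 4 lay below Control 4. Of the 50-base stretches of Map1lc3b, 5.77% also occur in transcripts of other annotated genes. Map1lc3b rose by 0.95 on the log2 scale (SE 0.29, edgeR adjusted p = 0.0498), against 0.13 by total counts, and passed in 2 of the 8 fits that left out 1 sample, those without Control 4 or Stress 4 (adjusted p up to 0.143, without Stress 3). Gabarap had 82.0, 65.4, 55.2 and 102 CPM in Control 1 to 4 and 122, 114, 175 and 90.9 CPM in Stress 1 to 4. Stress 3 was again the highest and Control 3 the lowest, with Stress 4 below Control 4. Gabarap rose by 0.72 on the log2 scale (SE 0.22, edgeR adjusted p = 0.0488), against -0.09 by total counts, and likewise passed only without Control 4 or Stress 4 (adjusted p up to 0.131, without Stress 3). Map1lc3a, the least abundant of the family, was at 1.98, 2.48, 2.27 and 1.55 CPM in Control 1 to 4 and 3.48, 5.43, 2.43 and 3.27 CPM in Stress 1 to 4. Here Stress 2 was the highest and Stress 3 was just under Control 2. Map1lc3a rose by 0.82 on the log2 scale (SE 0.25, edgeR adjusted p = 0.0420), against 0.00048 by total counts and -0.18 by red cell marker scaling, and passed only without Stress 3 or Stress 4 (adjusted p up to 0.110, without Stress 2).

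Gabarapl2 (chr8:111940703-111953612, plus strand) had the highest level per kilobase of the 36 genes. It was at 418, 272, 195 and 495 CPM in Control 1 to 4 and 674, 637, 1077 and 420 CPM in Stress 1 to 4. Stress 3 stood alone at the top, and Stress 4 was level with Control 1 and below Control 4. Its log2 fold change of 1.02 (SE 0.32) was the largest of the 36 but did not pass (edgeR adjusted p = 0.0531, 0.0604 by DESeq2). It passed by limma-voom (adjusted p = 0.0389), and in edgeR with a minimum of 50 counts (0.0468), by total counts outside haemoglobin (0.0239), and without Control 4 or Stress 4 (0.0271 and 0.0232). Of its 50-base stretches, 12.2% also occur in transcripts of other annotated genes. Its raw counts ranged from 13112 to 15708 over the 8 libraries, and those of Map1lc3b from 7411 to 8757. The ratio of Map1lc3b to Gabarapl2 counts within a sample, which no scaling between libraries can alter, was 0.537, 0.597, 0.618 and 0.558 in Control 1 to 4 and 0.532, 0.543, 0.531 and 0.565 in Stress 1 to 4. The ratio differed by -0.09 on the log2 scale (exact permutation p = 0.200).

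**Figure D3:**
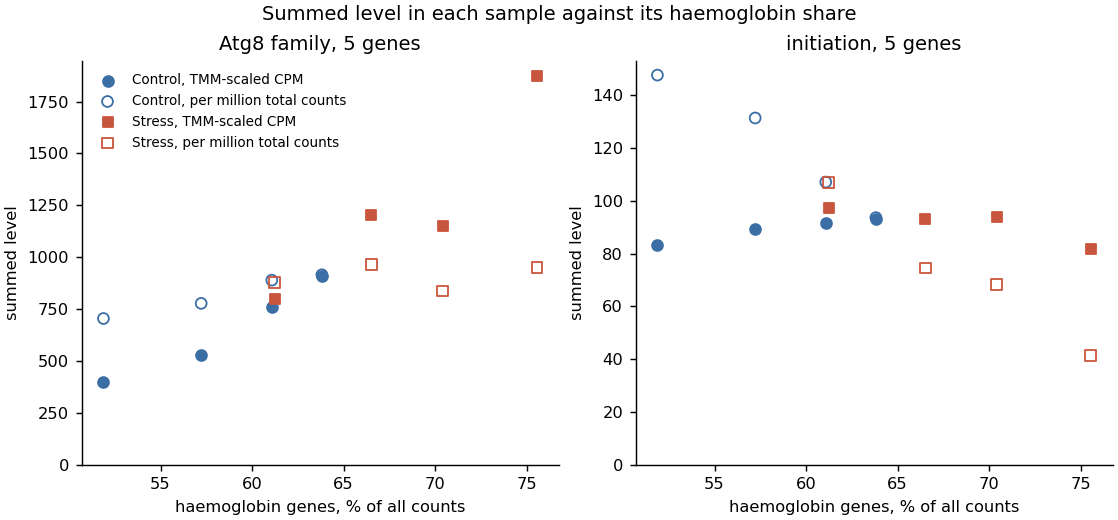
Summed level of the Atg8 family (left) and of the initiation genes (right) in each sample, against the haemoglobin share of counts in percent, with filled symbols for TMM-scaled CPM and open symbols for the same sum scaled by total counts. The Atg8 sum by TMM runs from 397 CPM in Control 3 to 1872 CPM in Stress 3, and the initiation sum from 81.7 to 97.2 CPM; by total counts the Atg8 sum instead runs from 705 to 966 and the initiation sum from 41.5 in Stress 3 to 148 in Control 3.

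The level of the Atg8 family on the TMM scale was read beside the haemoglobin share of each sample. Its summed level was 761, 528, 397 and 910 CPM in Control 1 to 4 and 1206, 1152, 1872 and 798 CPM in Stress 1 to 4. In Control the sums ranked as the haemoglobin share did. In Stress the lowest and highest sums were in the samples with the least and the most haemoglobin, Stress 4 and Stress 3, and Stress 1 and Stress 2 were in the opposite order. The initiation genes together had 91.6, 89.3, 83.3 and 93.1 CPM in Control 1 to 4 and 93.1, 93.9, 81.7 and 97.2 CPM in Stress 1 to 4. Among the counts of the 36 genes the Atg8 family made up 52.4%, 45.8%, 41.3% and 55.6% in Control 1 to 4 and 57.3%, 59.1%, 66.4% and 51.9% in Stress 1 to 4, a share that is free of the scaling between libraries. In both groups the TMM factors ran in the reverse order of the haemoglobin share. A gene keeping its share of total counts would therefore take the haemoglobin order on the TMM scale. Within the Control group on that scale, 10 of the 36 genes ranked the samples as the haemoglobin share did, or 27.8%, beside 9.03% of all tested genes. They were Ulk1, Becn1, Wipi1, Atg4a, Atg4c, Map1lc3b, Gabarap, Gabarapl1, Gabarapl2 and Sqstm1. Of these, 5 were among the genes that rose. Within the Stress group 0 of 36 genes had the order of the haemoglobin share, beside 6.63% of all tested genes.

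Control 1 and Stress 4 had almost the same haemoglobin share, 61.1% and 61.2%, and this pair was picked after its values were seen. In that pair Gabarapl2 was at 418 and 420 CPM. Of the 10 genes that rose, Map1lc3b was at 224 and 237 CPM, Becn1 at 179 and 189, Optn at 15.9 and 16.4, Atg12 at 25.7 and 27.7, Gabarap at 82.0 and 90.9, Sqstm1 at 76.4 and 93.6, Atg7 at 12.6 and 15.8, Gabarapl1 at 34.2 and 46.3, Atg3 at 10.9 and 17.5 and Map1lc3a at 1.98 and 3.27 CPM. The pair sets 1 sample against 1 sample, so it carries no spread. Control 4 and Stress 1 were also close in share, at 63.8% and 66.5%. There Gabarapl2 was at 495 and 674 CPM, Becn1 at 192 and 297, Optn at 15.8 and 29.2 and Atg3 at 13.9 and 14.0. Atg12 was at 24.0 and 36.3 CPM, Atg7 at 10.8 and 16.1, Gabarapl1 at 34.7 and 47.4 and Sqstm1 at 86.9 and 123. Map1lc3b was at 276 and 359 CPM, Gabarap at 102 and 122 and Map1lc3a at 1.55 and 3.48. With the haemoglobin share as a covariate, also added after seeing the data and run in edgeR only, 0 of the 36 genes passed in either direction (4 higher and 0 lower at an unadjusted p below 0.05), beside 1.87% of all tested genes that rose and 0.0683% that fell. The share was itself higher on average in Stress, at 68.4% against 58.5% in Control. With 8 samples this fit therefore cannot fully tell the group apart from the haemoglobin share. In that fit the log2 fold changes were 0.49 for Gabarapl1 (adjusted p = 0.113), 0.46 for Atg7 (adjusted p = 0.171) and 1.04 for Map1lc3a (adjusted p = 0.174), but 0.08 for Map1lc3b, 0.07 for Gabarap and 0.07 for Gabarapl2. Between these lay Atg3 at 0.34, against 0.41 without the covariate, Optn at 0.32, Sqstm1 at 0.29, Atg12 at 0.28 and Becn1 at 0.24.

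Cargo receptors were represented by Sqstm1, Nbr1 and Optn, which bind ubiquitin-tagged material, and Fundc1, a receptor on the outer membrane of mitochondria. Sqstm1 and Optn rose on the TMM scale (2 of 4), where 3 of 4 were above 0, against 1 of 4 by total counts, which was Optn, while Nbr1 fell there in edgeR. Beside these counts, 10.4% of all tested genes rose by TMM and 49.6% fell by total counts. Sqstm1 (chr11:50199366-50210827, minus strand) was at 76.4, 66.7, 64.6 and 86.9 CPM in Control 1 to 4 and 123, 89.9, 131 and 93.6 CPM in Stress 1 to 4. Every Stress sample was above every Control sample, with Stress 2 only just above Control 4. Sqstm1 rose by 0.57 on the log2 scale (SE 0.15, edgeR adjusted p = 0.0244), against -0.22 by total counts, and lost the call without Control 1, Control 2, Control 3 or Stress 1 (adjusted p from 0.0541 to 0.0918). Of its exon bases 17.3% lie opposite Mrnip. Optn was at 15.9, 10.3, 7.59 and 15.8 CPM in Control 1 to 4 and 29.2, 19.9, 32.0 and 16.4 CPM in Stress 1 to 4. The groups did not overlap, but Stress 4 was close to Control 1 and Control 4. Optn rose by 0.97 on the log2 scale (SE 0.26, edgeR adjusted p = 0.0296), against 0.19 by total counts, and lost the call without Control 2, Control 3, Stress 1, Stress 2 or Stress 3 (adjusted p from 0.0589 to 0.159). Nbr1 and Fundc1 had log2 fold changes of -0.07 (adjusted p = 0.706) and 0.33 (adjusted p = 0.115).

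Tfeb, which drives transcription of lysosome and autophagy genes, was at 14.2, 17.7, 18.2 and 15.9 CPM in Control 1 to 4 and 15.9, 11.7, 19.4 and 17.6 CPM in Stress 1 to 4. The groups overlapped throughout, and its log2 fold change was -0.04 (SE 0.15, edgeR adjusted p = 0.895), whereas by total counts it fell in edgeR (log2 fold change -0.85, adjusted p = 0.0343).

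The ratio of Sqstm1 to Nbr1 counts was 2.35, 1.78, 1.93 and 2.57 in Control 1 to 4 and 3.72, 2.60, 4.83 and 2.61 in Stress 1 to 4. All Stress samples lay above all Control samples, by little for Stress 2 and Stress 4. The difference was 0.64 on the log2 scale (two-sided exact permutation p = 0.0286, the smallest that 70 assignments allow, and adjusted p = 0.157 over 11 pairs). Of the 11 pairs of related genes, 0 passed after adjustment in this exact test, the only one run on the ratios, and 1 passed unadjusted. With 11 pairs, at least 7 would have to reach the smallest p for any to pass after adjustment. The ratio of Wipi1 to Wipi2 differed by 1.32 on the log2 scale (exact p = 0.0571, adjusted p = 0.157) and that of Atg4a to Atg4b by 0.96 (exact p = 0.114, adjusted p = 0.210), while Gabarap to Gabarapl1 differed by 0.01 (exact p = 1.00).

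**Figure D4:**
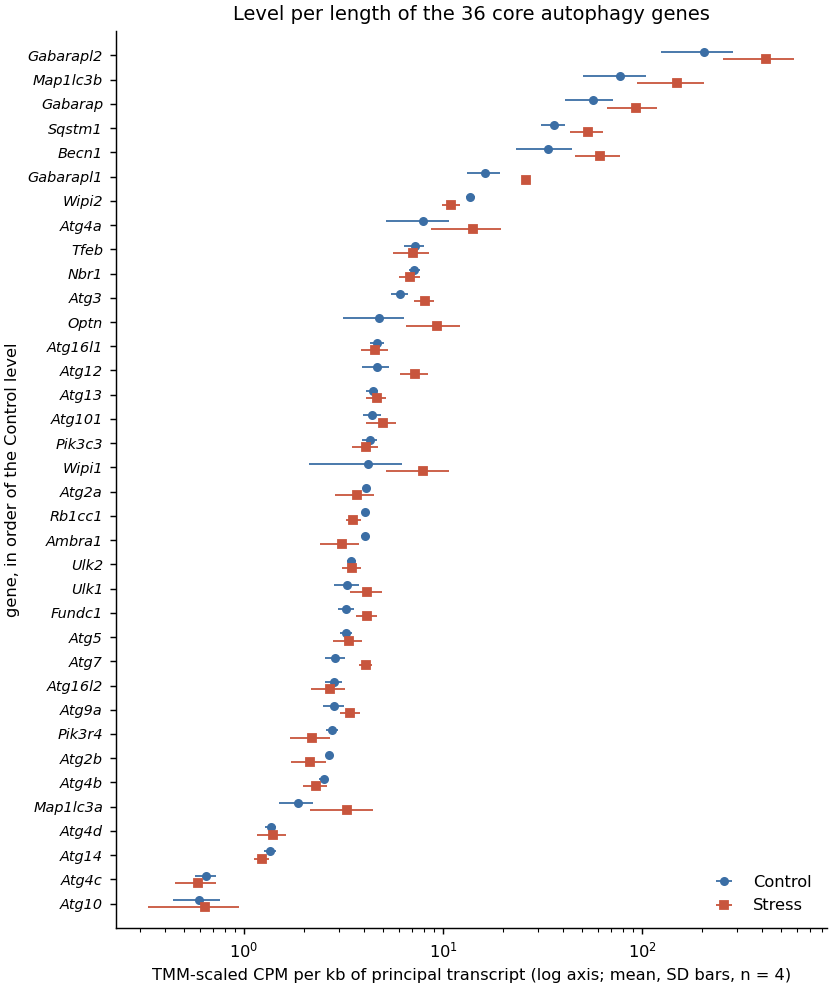
Level of each of the 36 genes per kilobase of its principal transcript, in TMM-scaled CPM per kb on a log axis, as the mean of 4 samples with SD bars, for Control (circles) and Stress (squares) and in order of the Control level. Control levels run from 206 for Gabarapl2 to 0.596 for Atg10, and 6 of the 10 genes that rose by TMM have the opposite sign by total counts.

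Per kilobase of the principal transcript, levels in Control samples on the TMM scale ran from 206 ± 81.2 CPM per kb for Gabarapl2 to 0.596 ± 0.157 for Atg10 (SD, n = 4 each). Map1lc3b followed at 77.4 ± 27.0, Gabarap at 56.4 ± 15.3, Sqstm1 at 36.2 ± 5.02 and Becn1 at 33.8 ± 10.5 CPM per kb. With all annotated exon bases as the length, Gabarap (41.4 CPM per kb) was above Map1lc3b (26.1 CPM per kb), and Wipi2 (2.55 CPM per kb) was below Atg2a (3.41 CPM per kb) and Tfeb (2.91 CPM per kb). The SD ranges of Map1lc3b and Gabarap overlapped, as did those of Sqstm1 and Becn1. Gabarapl1 came next at 16.2 ± 3.11 and Wipi2 at 13.7 ± 0.727 CPM per kb, again with overlapping SD ranges. The leading genes of the other roles were Atg4a at 7.93, Tfeb at 7.19, Atg3 at 6.07 and Atg13 at 4.42 CPM per kb, and no gene outside those named before had a higher level than Atg4a.

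Other genes of the pathway were read from lists outside the 36. Of 104 tested of 108 listed, 20 rose and 4 fell on the TMM scale (edgeR; 36 higher and 16 lower at an unadjusted p below 0.05), or 19.2% and 3.85% beside 10.4% and 3.69% of all tested genes. By total counts 1 rose and 44 fell, or 0.962% and 42.3%, beside 0.444% and 49.6% of all tested genes. By total counts 4 of 16 other cargo receptors and 7 of 28 lysosome genes fell and 0 rose in edgeR (also 0 at an unadjusted p below 0.05). Outside haemoglobin 1 receptor rose and 1 fell, and 1 lysosome gene rose and 4 fell, while by red cell marker scaling 4 lysosome genes fell. Of all tested genes 49.6% fell by total counts, 4.70% rose and 33.7% fell outside haemoglobin, and 30.4% fell by red cell marker scaling. On the TMM scale 6 of the 16 receptors rose, among them Rtn3, a receptor for the endoplasmic reticulum (log2 fold change 0.63, adjusted p = 0.00397), the ubiquitin-binding adaptor Tollip (0.69, adjusted p = 0.00515) and the mitochondrial receptor Fkbp8 (0.48, adjusted p = 0.0170). Bnip3l, the receptor through which maturing red cells clear mitochondria, was at 1927, 1264, 868 and 2226 CPM in Control 1 to 4 and 2806, 2594, 3472 and 1829 CPM in Stress 1 to 4. Its samples ranked like those of Gabarapl2 within each group, and the groups overlapped. The log2 fold change of Bnip3l was 0.77 (SE 0.32, edgeR adjusted p = 0.120), and it passed by DESeq2 (adjusted p = 0.0336). Of 28 lysosome genes 8 rose and 0 fell on the TMM scale in edgeR (15 higher and 1 lower at an unadjusted p below 0.05, 0 lower by DESeq2 and limma-voom), led by the membrane proteins Lamp2 (0.77, adjusted p = 0.00134) and Lamp1 (0.72, adjusted p = 0.00363) and the protease Ctsd (0.80, adjusted p = 0.00475).

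Of 25 genes that feed mTORC1 and AMPK signals to the initiation kinases, 4 rose and 1 fell on the TMM scale, or 16% and 4%, beside 10.4% and 3.69% of all tested genes. By total counts 0 rose and 12 fell, outside haemoglobin 0 and 10 and by red cell marker scaling 0 and 9, all in edgeR (0 higher at an unadjusted p below 0.05 by total counts). The falls are 48%, 40% and 36% of the 25 genes, beside 49.6%, 33.7% and 30.4% of all tested genes. By TMM the AMPK subunit Prkab2 (log2 fold change 0.58, adjusted p = 0.0196), the mTORC1 restrainers Sesn2 (0.60, adjusted p = 0.0258) and Nprl3 (0.41, adjusted p = 0.0284) rose, and the mTORC1 scaffold Rptor fell by 0.44 (adjusted p = 0.0139). Of 14 partners of the lipid kinase and membrane proteins, Vmp1 rose (0.50, adjusted p = 0.0394) and Rubcn, an inhibitor of the lipid kinase, fell by 0.48 (adjusted p = 0.0426). Of 14 genes for fusion with the lysosome, 0 rose by edgeR, DESeq2, limma-voom or an unadjusted p below 0.05, and the tether Epg5 fell by 0.56 (adjusted p = 0.0356). Of 7 genes in the list of Tfeb relatives, Foxo factors and Zkscan3, Tfec rose (2.23, adjusted p = 0.0152) and Foxo1 fell by 0.38 (adjusted p = 0.0484). Tfec was scarce, at 0.282 ± 0.203 CPM in Control and 1.28 ± 0.695 CPM in Stress (SD, n = 4 each). By total counts 9 of the 14 partners, 10 of the 14 fusion genes and 2 of the 7 factors fell in edgeR, and 1 of the 7 factors rose, beside 49.6% of all tested genes that fell and 0.444% that rose. Prkab2, Sesn2, Nprl3, Vmp1, Rtn3, Tollip, Fkbp8 and Lamp1 had log2 fold changes below 0 by total counts.

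The remaining marker lists were read on the TMM scale as well. Of 8 non-classical monocyte markers 2 fell and 0 rose (edgeR, DESeq2 and limma-voom, with 1 higher at an unadjusted p below 0.05), with Itgal the most abundant. The 2 were Pou2f2, which passed in 6 of the 8 fits that left out 1 sample, and Ace, which passed in 2. Which blood cells the falls of Pou2f2 and Ace came from was not tested. Of 9 T cell markers 0 passed by edgeR, DESeq2 or limma-voom, and 0 were past an unadjusted p of 0.05 in either direction, with Tcf7 the most abundant. Of 8 natural killer cell markers, with Gzma the most abundant, 1 fell by edgeR and DESeq2 and 0 by limma-voom. It was Klrk1 (edgeR adjusted p = 0.0486), which passed in 1 of the 8 fits that left out 1 sample. Of 4 eosinophil and basophil markers 1 rose and 1 fell, with Il5ra the most abundant. Siglecf, which rose, passed in 2 of the 8 fits that left out 1 sample, and Il5ra, which fell, in all 8. By total counts 6 T cell, 5 non-classical monocyte and 7 natural killer cell markers fell. Beside these counts, 10.4% of all tested genes rose and 3.69% fell by TMM, and 49.6% fell by total counts. The eosinophil granule genes Epx and Prg2 were near 0, at 0 to 2 and 0 to 7 counts per sample.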

How the data were processed

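Peripheral blood RNA of mice, as 4 Control and 4 Stress samples, was sequenced on libraries made with a TruSeq RNA kit. Raw read counts, in 1 table keyed by gene symbol, were deposited by the authors without normalization. The submitters' processing notes name HISAT2, featureCounts and mm10. The strand setting, the annotation and the filters are not given in the sources used here, so reads of overlapping genes on opposite strands cannot be told apart. Groups were taken from the labels, which do not say that replicates are separate mice, and p-values then measure only the spread between these samples. Total counts were 31471145, 35098378, 39014775 and 31524196 in Control 1 to 4 and 27985919, 29655725, 25978683 and 28392759 in Stress 1 to 4.

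Genes with 10 or more counts in at least 4 samples were fitted in R 4.3.3 with edgeR 4.0.16 (TMM, robust quasi-likelihood test, Benjamini-Hochberg over 11718 genes), after the script had been tested on simulated data. All adjusted p-values are from this fit unless another tool is named. Ratios of 11 pairs were compared with a two-sided exact permutation test over 70 assignments on log2 values with a pseudocount of 0.5, adjusted over the pairs. Levels per kilobase and gene positions used GENCODE M21 on GRCm38 (mm10), and promoters were from RefSeq. Python 3.11.15, numpy 2.4.6, pandas 2.3.3, scipy 1.17.1 and matplotlib 3.10.9 were used for the other steps.

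Values in every sample are given for the genes at an adjusted p below 0.05 and for the gene with the highest level per kilobase in each role. Other members given with values (such as Wipi1, Ulk1, Rb1cc1, Ambra1 and Pik3r4) were picked after their values were seen. From each other pathway list up to 3 genes with the smallest p in each direction are named, and Bnip3l. The alternatives were DESeq2 1.42.0, limma-voom (limma 3.58.1), RLE and upper-quartile factors, total counts, total counts outside haemoglobin, no count filter, a minimum of 50 counts, haemoglobin genes left out, the replicate number as a block, and leaving out each sample. Red cell marker scaling and the haemoglobin covariate were added after seeing the data. The 36 genes and all lists were chosen with earlier results of these data known. Of 88 marker genes 80 were tested, and Ahsp and Trac were not analysed here.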

Additional observations from a re-analysis of the deposited data

Results flagged for a closer look

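In 4 of 94 groups of 4 samples, 1 sample stood apart from the other 3; about 1 in 20 groups does so by chance. Ambra1 was at 19.6 CPM in Control 3, with the other Control samples at 21.4 to 21.8 CPM. Atg9a was at 11.7 CPM in Stress 3, with the other Stress samples at 14.7 to 15.2 CPM. Of the 50-base stretches of Atg9a, 30.2% also occur in transcripts of other annotated genes, and 31.8% of its exon bases lie in Gm29253 on the same strand, so its counts are uncertain. Atg7 was at 13.6 CPM in Stress 2, with the other Stress samples at 15.8 to 16.1 CPM. Atg16l2 was at 12.4 CPM in Stress 1, with the other Stress samples at 18.5 to 19.5 CPM.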

How the results depend on the processing

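Under RLE factors, a minimum of 50 counts and without the haemoglobin genes, the counts below stayed within 1.5 times. Of all tested genes, 198 rose and 2 fell at the study's thresholds. These were 14 and 728 by total counts, 57 and 136 by total counts outside haemoglobin, 307 and 12 by DESeq2, 2 rising by red cell marker scaling, and 6 and 0 with the haemoglobin covariate, while the number that fell was 4 with upper-quartile factors and 4 without a count filter. At an adjusted p below 0.05, 1222 rose and 432 fell, against 52 and 5811 by total counts, 551 and 3945 outside haemoglobin, 15 and 3559 by red cell marker scaling, and 219 and 8 with the covariate. Of the 36 genes, 10 rose and 0 fell, against 0 and 15 by total counts, 4 and 9 outside haemoglobin, 0 and 5 by red cell marker scaling and 0 with the covariate; 1 fell by upper-quartile factors and 1 by DESeq2. Map1lc3b lost its call without the haemoglobin genes, Gabarap and Map1lc3b with upper-quartile factors, and both with Optn without a count filter. The median of the 36 genes, 0.08, became -0.72, -0.33 and -0.88 by total counts, outside haemoglobin and by red cell marker scaling. Of the other pathway genes, 20 rose and 4 fell, against 1 and 44 by total counts, 4 and 33 outside haemoglobin, 0 and 29 by red cell marker scaling, 2 and 1 with the covariate, and 31 and 5 by DESeq2. Of the 22 genes above 0, 15 were below 0 by total counts, 9 outside haemoglobin and 18 by red cell marker scaling. Those that had risen and then reversed were, by total counts, Gabarapl1 (-0.058), Atg12 (-0.16), Atg7 (-0.26), Sqstm1 (-0.22), Atg3 (-0.38) and Gabarap (-0.092), and by red cell marker scaling for Gabarapl1 (-0.19), Atg12 (-0.31), Atg7 (-0.42), Sqstm1 (-0.38), Becn1 (-0.024), Atg3 (-0.53), Map1lc3a (-0.18) and Gabarap (-0.21). Atg4d (-0.78) and Atg5 (-0.81) reversed by total counts and passed as lower. The cause was not tested.

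Replicate numbers did not pair the samples: same-numbered deviations correlated at 0.06, 4.4e-04, -0.04 and -0.16. With the replicate number as a block, 5 of the 36 genes rose (Atg3, Atg7, Atg12, Gabarapl1 and Sqstm1), and 240 of all genes fell, 1 of them at the study's thresholds. Leaving out 1 sample, 76 (without Control 2) to 340 (without Control 4) genes rose and 1 to 8 (without Stress 4) fell at the study's thresholds, and 617 (without Control 2) to 1425 rose and 81 (without Control 2) to 726 (without Stress 4) fell at an adjusted p below 0.05. Of the 36 genes 2 (without Control 2) to 12 (without Control 4) rose and 0 to 2 (without Stress 4) fell, with medians from 0.061 to 0.19. With 4 samples a group and 1 whole-blood RNA source, a value past no threshold does not show that levels were equal, and Atg10, with the fewest counts of the 36 genes, had the widest standard error (0.38 on the log2 scale).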
